A study of Mus musculus with 10 samples.

Results

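The genes described here are the complement components and complement receptors C1qa, C1qb, C1qc, C3, C3ar1, C5ar1, Cfb and Cfp, 8 genes chosen by name. Each was read from the probe set that carries its symbol alone, taking the one with the highest mean where there were several. A probe set of this kind was found for 7 of the 8, with 1 for each gene, among 19938 genes tested. C3 had none in the annotation used and was not analysed here. The RNA came from immortalized mouse macrophages of a wild-type B6 line and of a line lacking Toll-like receptor 9 (TLR9KO), an endosomal receptor for DNA. Each line was studied without stimulation and after 4 h with beads of β-1,3 glucan, a sugar of fungal cell walls, at 20 beads per cell. There were 3 arrays for each wild-type group and 2 for each knockout group. Each genotype was 1 named line, so line and genotype cannot be told apart. Separate cultures are not stated for the arrays within a group, so p-values measure the spread between these arrays, which may be technical.

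Complement is a set of proteins that mark particles for uptake and call in phagocytes. C1q, built from chains encoded by C1qa, C1qb and C1qc, starts the classical pathway, and macrophages are a main source of it outside the liver-made components. Factor B (Cfb) and properdin (Cfp) form and stabilise the enzyme of the alternative pathway that cleaves C3. The released peptides C3a and C5a act on macrophages through the receptors encoded by C3ar1 and C5ar1.

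Values are log2 signals made by the authors with RMA. This method corrects background, usually normalises arrays to each other and reduces the probes of a probe set to 1 value. A difference of 1 is a 2-fold change in signal. The test was limma, a linear model fitted to all 19938 genes, and "passed" means a p under 0.05 after Benjamini-Hochberg adjustment over them. Wild-type bead array 3 stood apart, with a mean Pearson r of 0.973 across genes to the other arrays of its group, against 0.985 to 0.997 for the other 9 arrays. Its signals were spread the least (SD over genes 1.75, against 1.86 to 2.00). Tlr9, the targeted gene, read between 6.91 and 7.44 in the 6 wild-type arrays and between 7.31 and 7.62 in the 4 knockout arrays. It did not pass without beads (0.37 ± 0.15, SE, adjusted p = 0.244) or with them (0.10 ± 0.15). Whether this probe set covers the deleted stretch of the gene is not known here, so its value does not check the labels.

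C3ar1 and C5ar1 passed in both comparisons of the lines, and of these only C3ar1 has its upstream sequence shown. The sequences upstream of the start site are given for C3ar1 and for C1qb and C1qc, which encode the other chains of C1q beside C1qa. They are RefSeq sequences of build GRCm38.p6, matched by symbol for 5 of the 7 measured genes, and run 5′ to 3′ on the minus strand. C3ar1 is shown from chr6:122856158-122856407, C1qb from chr4:136886201-136886450 and C1qc from chr4:136892937-136893164. The last 22 bases before the C1qc start site are left out because another transcript of the gene may cover them. Capitals mark matches, on either strand, to AGGAAGT (a core that ETS factors such as PU.1 bind), to TGANTCA (an AP-1 core) and to the kappaB motif.
C3ar1: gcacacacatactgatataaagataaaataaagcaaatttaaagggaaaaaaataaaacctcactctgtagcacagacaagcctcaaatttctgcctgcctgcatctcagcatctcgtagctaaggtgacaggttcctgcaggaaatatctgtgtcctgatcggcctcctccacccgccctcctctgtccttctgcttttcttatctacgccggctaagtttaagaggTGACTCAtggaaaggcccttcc
C1qb: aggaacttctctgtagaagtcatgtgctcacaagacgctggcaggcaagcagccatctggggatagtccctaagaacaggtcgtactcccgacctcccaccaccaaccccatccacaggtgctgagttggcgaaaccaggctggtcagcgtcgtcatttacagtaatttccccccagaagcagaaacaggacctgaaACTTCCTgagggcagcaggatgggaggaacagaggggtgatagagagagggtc
C1qc: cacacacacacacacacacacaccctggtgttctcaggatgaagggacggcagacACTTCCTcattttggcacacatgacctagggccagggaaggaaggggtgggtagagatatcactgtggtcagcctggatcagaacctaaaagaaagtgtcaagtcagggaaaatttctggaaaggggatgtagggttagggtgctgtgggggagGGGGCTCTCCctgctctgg
AGGAAGT occurred once in C1qb and once in C1qc, 2 times in the same 250-base window of C5ar1, and in 7.69% of 32851 promoter windows of that length. The 2 matches of C5ar1 lay outside the first 48 bases of its window. The rest of that window may be covered by another transcript of C5ar1, like the bases left out for C1qc. These 2 matches may therefore lie within the gene and not upstream of it. TGANTCA occurred only in C3ar1 among the 5 genes, starting 22 bases before the start site, and in 6.75% of all windows. The kappaB motif occurred only in C1qc among the 5 (7.25% of all windows). None of the 5 held the interferon-stimulated response element, searched as GAAA, any 2 bases and GAAA (2.98% of all windows), or TTCNNNGAA, the gamma-activated site (7.02%). No match overlapped another, and a match is a description of letters only.

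The receptor genes C3ar1 and C5ar1 rose in the knockout line in both conditions. C3ar1 (probe set 10547657) encodes the receptor for C3a. Its log2 signal in the unstimulated arrays was 11.60, 11.46 and 11.48 (wild type) and 12.23 and 12.32 (knockout). The bead arrays gave 11.76, 11.58 and 11.40 (wild type) and 12.24 and 12.34 (knockout). All 4 knockout arrays lay above all 6 wild-type arrays. The difference was 0.77 ± 0.12 (SE), or 1.70-fold, without beads (adjusted p = 0.00329) and 0.71 ± 0.12, or 1.64-fold, with beads (adjusted p = 0.00533). C3ar1 was among the brightest genes of every array, between the 99.1 and the 99.8 percentile of all genes.

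C5ar1 (probe set 10560242) encodes the receptor for C5a, a strong attractant of phagocytes. Its signal in the unstimulated arrays was 9.10, 9.04 and 8.90 (wild type) and 10.05 and 9.93 (knockout). The bead arrays gave 9.51, 9.48 and 9.10 (wild type) and 9.89 and 10.11 (knockout). Again every knockout array was above every wild-type array. C5ar1 was 1.97-fold higher in the knockout line without beads (0.98 ± 0.14, adjusted p = 0.00262) and 1.55-fold higher with beads (0.64 ± 0.14, adjusted p = 0.0260). The order of its group means was wild type without beads (9.01 ± 0.10, SD, n = 3), wild type with beads (9.36 ± 0.23, n = 3), then knockout without beads (9.99 ± 0.08, n = 2) and with beads (10.00 ± 0.15, n = 2). The knockout groups did not differ beyond their spread.

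**Figure D1:**
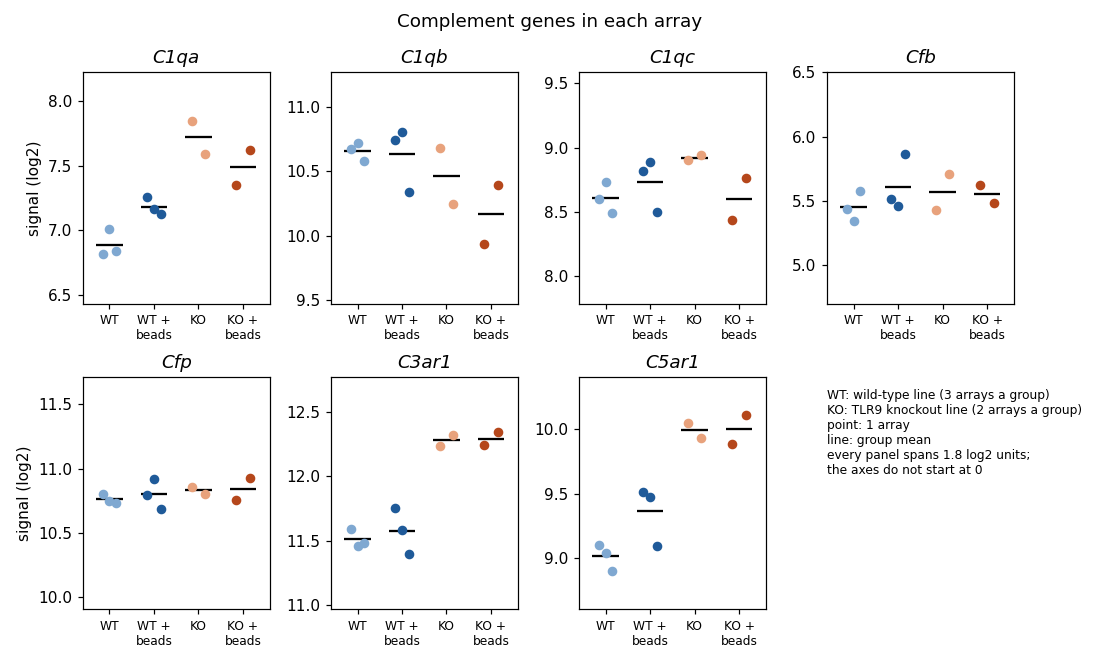
Log2 signal of the 7 measured complement genes in each of the 10 arrays, with points for arrays and lines for group means (WT, wild-type line, 3 arrays a group; KO, TLR9 knockout line, 2 arrays a group). In C3ar1 and C5ar1 the 4 knockout arrays sit above the 6 wild-type arrays, and in C1qa too, while in C1qb, Cfb and Cfp they do not part from them.

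Of the genes for the chains of C1q, C1qa passed between the lines without beads, and C1qb and C1qc did not pass in either comparison. C1qa (probe set 10517517) read 6.81, 7.01 and 6.84 in unstimulated wild type and 7.85 and 7.60 in unstimulated knockout, with no overlap. It rose 1.78-fold in the knockout line without beads (0.83 ± 0.12, adjusted p = 0.00283). The bead arrays gave 7.26, 7.17 and 7.12 (wild type) and 7.35 and 7.63 (knockout). These did not overlap either, but the difference of 0.31 ± 0.12 did not pass (adjusted p = 0.237). C1qb (probe set 10517508) read 10.67, 10.72 and 10.58 in unstimulated wild type, overlapping the unstimulated knockout arrays at 10.68 and 10.25. Its difference was -0.19 ± 0.19 without beads (adjusted p = 0.868). In the bead arrays C1qb read 10.75, 10.81 and 10.34 (wild type) and 9.94 and 10.40 (knockout), a difference of -0.46 ± 0.19 that did not pass (adjusted p = 0.256). Without wild-type bead array 3 it was -0.61 and passed (adjusted p = 0.0231). C1qc (probe set 10517513) read 8.60, 8.73 and 8.49 in unstimulated wild type and 8.90 and 8.94 in unstimulated knockout. It did not pass without beads (0.31 ± 0.15, adjusted p = 0.320). It passed there after quantile normalisation of the deposited table (0.38, adjusted p = 0.0178) and in limma with array weights (0.39, adjusted p = 0.00819). With beads the knockout arrays, at 8.43 and 8.76, overlapped the wild-type arrays at 8.82, 8.89 and 8.50 (-0.14 ± 0.15). The limma fit with array weights passed each chain gene with beads. C1qa was higher there (0.32, adjusted p = 0.0265), and C1qb and C1qc were lower (-0.63 and -0.28, adjusted p = 0.00306 and 0.0472). The iteration that set these weights stopped short of its tolerance.

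The signal of one chain gene was also set against another within each array. These pairs were chosen after the values were seen, so they describe the same signals again and are given with no test. The level of such a difference depends on the probes and has no meaning of its own, but its change between arrays does not depend on how an array was centred. That change can still depend on how widely the signals of an array are spread. C1qa minus C1qb ran from -3.86 to -3.22 in the 6 wild-type arrays and from -2.83 to -2.58 in the 4 knockout arrays, so the lines did not overlap. The value of -3.22 was that of wild-type bead array 3, whose signals were spread the least. Averaged over both conditions it was higher by 0.90 in the knockout line. C1qa minus C1qc was higher there by 0.48, and C1qc minus C1qb by 0.42. The 3 differences are not independent, since any 2 of them fix the other. C1qb, C1qc and C1qa are direct neighbours in the annotation of build GRCm38.p6, in that order, with no other annotated gene between them.

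**Figure D2:**
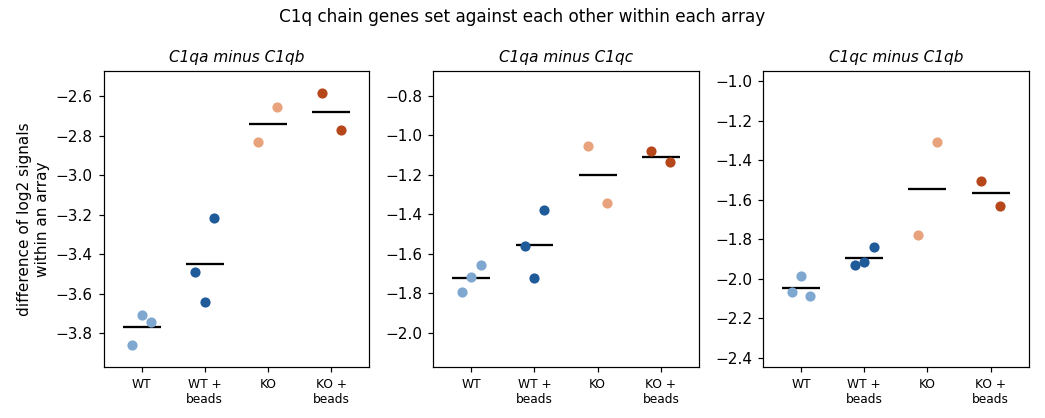
Difference of the log2 signals of pairs of C1q chain genes within each array, with points for arrays and lines for group means (WT, 3 arrays a group; KO, 2 arrays a group). For C1qa minus C1qb the wild-type arrays lie between -3.86 and -3.22 and the knockout arrays between -2.83 and -2.58.

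The alternative pathway genes differed little between the groups. Cfp (probe set 10603860), which encodes properdin, read between 10.69 and 10.93 over all 10 arrays. Its difference between the lines was 0.07 ± 0.10 without beads (95% interval -0.16 to 0.30) and 0.04 ± 0.10 with them (-0.19 to 0.27). Cfb (probe set 10450325), which encodes factor B, read between 5.34 and 5.86, which put it between the 36.5 and the 41.4 percentile of the genes of its array. It differed by 0.12 ± 0.15 (-0.21 to 0.45) without beads and by -0.06 ± 0.15 (-0.39 to 0.27) with them. No detection calls were used here, so whether the Cfb signal was above background is not known, and these intervals then bound the signal and not the transcript.

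Without beads 3 of the 7 measured genes passed, all higher in the knockout line (42.9%), against 3.79% of all genes tested that passed as higher, 4.46% as lower and 8.25% in either direction. The array ranges of 5 of the 7 lay above wild type, against 17.7% of all genes. Their median difference was 0.31, against 0.02 for all genes. With beads 2 of the 7 passed, both higher, against 3.82% of all genes higher, 3.40% lower and 7.22% in either direction, and the ranges of 3 lay above, against 11.3%. With beads their median difference was 0.04, against -0.01 for all genes. The 7 genes were chosen with earlier results of these data known, and all genes were taken without a filter on signal. The shares are therefore set side by side as description and are not a test of the list. After centring each array on its median, none of the 7 passed in either comparison. The differences were then 0.94 for C5ar1, 0.79 for C1qa and 0.73 for C3ar1 without beads (adjusted p = 0.0592, 0.0635 and 0.0678), and 0.69 for C3ar1 and 0.62 for C5ar1 with beads (adjusted p = 0.0877 and 0.275). The calls with beads also ended in a fit of the 2 bead groups alone (adjusted p = 0.0906 for C3ar1 and 0.191 for C5ar1) and without knockout bead array 2 (0.0746 and 0.254), and that of C5ar1 without knockout bead array 1 (0.0760).

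**Figure D3:**
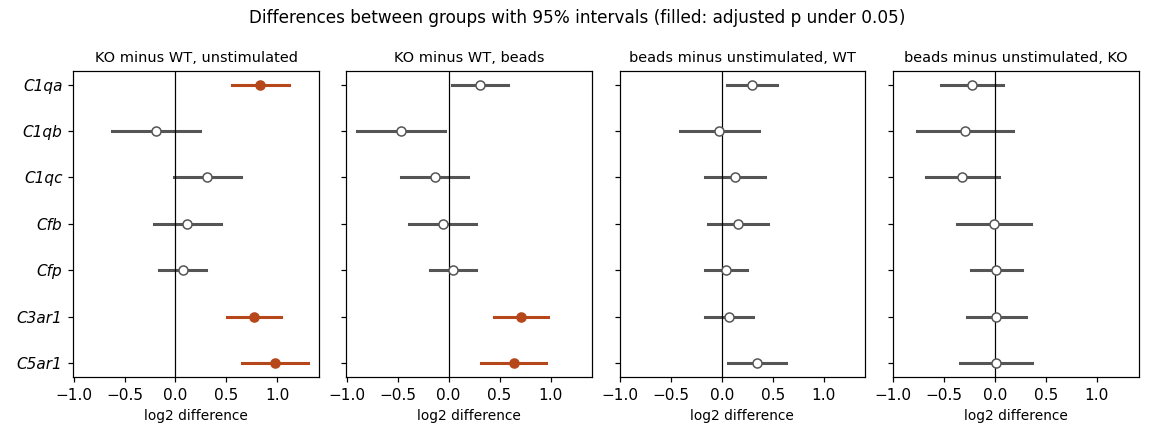
Log2 differences of the 7 measured genes in 4 comparisons, with points for the limma estimates and bars for 95% intervals (filled and coloured where the adjusted p was under 0.05). C1qa, C3ar1 and C5ar1 pass in the comparison of the lines without beads, C3ar1 and C5ar1 with beads, and none passes in either bead response.

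No complement gene of the 7 passed in the bead response of either line. In wild type the limma test passed 0 of 19938 genes (0%), with 167 at an unadjusted p under 0.05, and in knockout 0 (0%), with 359 (16 adjusted under array weights). Both unadjusted counts are under the share of 0.05 that independent tests of unchanged genes would give on average, and why was not tested. The counts of 0 do not show that no gene responded. C5ar1 had the largest value of the 7 in wild type, 0.35 ± 0.13 (95% interval 0.06 to 0.63, adjusted p = 1.00). Its bead arrays at 9.51 and 9.48 lay above the unstimulated arrays, and wild-type bead array 3, at 9.10, lay level with the highest of them. Without that array the value was 0.48 (adjusted p = 0.218). Ranked within its own array, C5ar1 stood at the 91.6 percentile of all genes in each of the 3 bead arrays and between 87.5 and 89.1 in the unstimulated ones. In wild type 3.39% of all genes had percentile ranges that lay higher with beads in this way. C1qa was 0.30 ± 0.11 higher in wild type (adjusted p = 1.00). Its 3 bead arrays lay above its 3 unstimulated arrays, as the ranges of 2.29% of all genes did. C3ar1 was at 0.07 ± 0.10 (-0.17 to 0.30). In a fit with array weights, which gave wild-type bead array 3 a weight of 0.0701, 5 of the 7 passed in wild type: C5ar1 (0.53), C1qc (0.36), C1qa (0.33), C1qb (0.20, against -0.02 with equal weights) and Cfp (0.17). That fit passed 9174 of all genes in this comparison.

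In the knockout line the chain genes had the lowest bead responses of the 7. They were -0.32 ± 0.16 for C1qc, -0.30 ± 0.21 for C1qb and -0.23 ± 0.14 for C1qa (adjusted p = 1.00 each). The bead arrays of C1qc lay below its unstimulated ones, as did those of 11.2% of all genes. C3ar1, C5ar1, Cfp and Cfb lay between -0.01 and 0.01, each with a standard error of 0.11 to 0.16. The difference of the bead responses between the lines was -0.53 ± 0.17 for C1qa, the largest in size of the 7, and did not pass (unadjusted p = 0.0140, adjusted p = 1.00). By within-array percentile C1qa stood at 64.4 to 65.6 with beads and 59.9 to 63.1 without in wild type, and at 68.1 to 70.4 with beads and 71.5 to 74.7 without in knockout, where 14.9% of all genes had percentile ranges that lay lower with beads. All 7 genes had a negative difference of responses (median -0.27, against -0.01 for all genes), but 0 of 19938 genes passed (0%), with 172 at an unadjusted p under 0.05 and 9 passing under array weights. The count of 172 is also under a share of 0.05 of all genes.

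Of the other complement genes, 47 were listed and 42 measured. The rest were not analysed here. Without beads 2 rose in the knockout line and 3 fell (11.9%, against 8.25% of all genes), and the same 5 genes passed with beads (against 7.22%). The median of the 42 was 0.03 without beads and -0.04 with them. By role over all 49 measured genes, receptors were higher in 3 of 10 and lower in none in both conditions, against 3.79% and 3.82% of all genes higher. Their medians were 0.31 and 0.25, and C3ar1 and C5ar1 were 2 of the 3. Among the other 8 receptors only Cd93 passed. Cd93, a phagocyte surface protein first described as a C1q receptor, was higher by 0.87 ± 0.21 without beads (adjusted p = 0.0353) and 0.83 ± 0.21 with them (adjusted p = 0.0485). Its call was lost in 7 of 17 alternative settings without beads (highest adjusted p 0.304) and in 10 of 17 with them (0.302). Itgam, a subunit of complement receptor CR3, which binds β-glucan as well as cleaved C3, had values of 0.61 ± 0.24 and 0.64 ± 0.24 and did not pass (adjusted p = 0.214 and 0.205).

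Regulators were lower in 2 of 13 in both conditions, against 4.46% and 3.40% of all genes lower, and higher in none. Cd59a, which blocks the membrane attack complex, read 6.56, 6.74 and 6.42 in unstimulated wild type and 4.12 and 4.09 in unstimulated knockout. The bead arrays gave 7.08, 6.76 and 5.74 (wild type) and 4.20 and 4.07 (knockout). The knockout arrays were far below the wild-type arrays, and the difference was -2.47 ± 0.32 without beads and -2.40 ± 0.32 with them (adjusted p = 0.00122 and 0.00152). Its knockout signal lay between the 6.6 and the 8.6 percentile of the genes of its array, so the size is not a measured fold. Clu, which encodes the terminal complex inhibitor clusterin, was lower by a smaller amount (-0.44 ± 0.10 and -0.42 ± 0.10, adjusted p = 0.0275 and 0.0374). The call of Clu was lost in 5 of 17 settings without beads (highest adjusted p 0.246) and in 12 of 17 with them (0.338), among them a trended, robust eBayes (0.0612) and the filter on low signal (0.0549).

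Among classical pathway genes 1 of 9 was higher (C1qa) and 1 lower without beads, and 1 was lower with them, against 8.25% and 7.22% of all genes in either direction. Counts of 1 in lists this small are near that share. C4b, which encodes complement C4, differed by -0.95 ± 0.14 without beads (adjusted p = 0.00236) and -0.84 ± 0.14 with them (adjusted p = 0.00523), lower in knockout. C4a, a near-identical gene whose transcripts its probes may also read, was at -0.29 ± 0.12 and -0.37 ± 0.12 and did not pass. C1ra, a protease that C1q carries, was at 0.96 ± 0.26 without beads and missed the threshold (adjusted p = 0.0531). It passed there under a trended, robust eBayes, median centring, quantile normalisation, the low-signal filter, the compared groups alone and array weights. With the mean of probe sets C1ra did not pass, and with 1 array left out it passed in some fits only. Itgam, C4a and C1ra did not pass in the main fit and are named after their values were seen. In the lectin pathway Fcna, which encodes ficolin A, was the 1 of 8 that passed, higher by 0.44 ± 0.09 and 0.46 ± 0.09 (adjusted p = 0.0144 and 0.0119). A count of 1 of 8 is also near the share of all genes. The call of Fcna was lost in 5 of 17 settings without beads (highest adjusted p 0.155) and in 4 of 17 with them (0.144). None of 7 terminal pathway genes passed, with medians of 0.07 and -0.02. After median centring 3 of the 42 passed without beads (C1ra, C4b and Cd59a) and 3 with beads (C4a, C4b and Cd59a). Leaving out 1 knockout array of the unstimulated group left only C4b and Cd59a passing there. With beads only Cd59a passed without knockout bead array 1, and C4b and Cd59a without knockout bead array 2. Without unstimulated wild-type array 1 or 2 there were 3 without beads. With beads there were 3 (C4b, Cd59a and Fcna) without wild-type bead array 2, unstimulated wild-type array 1 or 3, or either unstimulated knockout array.

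**Figure D4:**
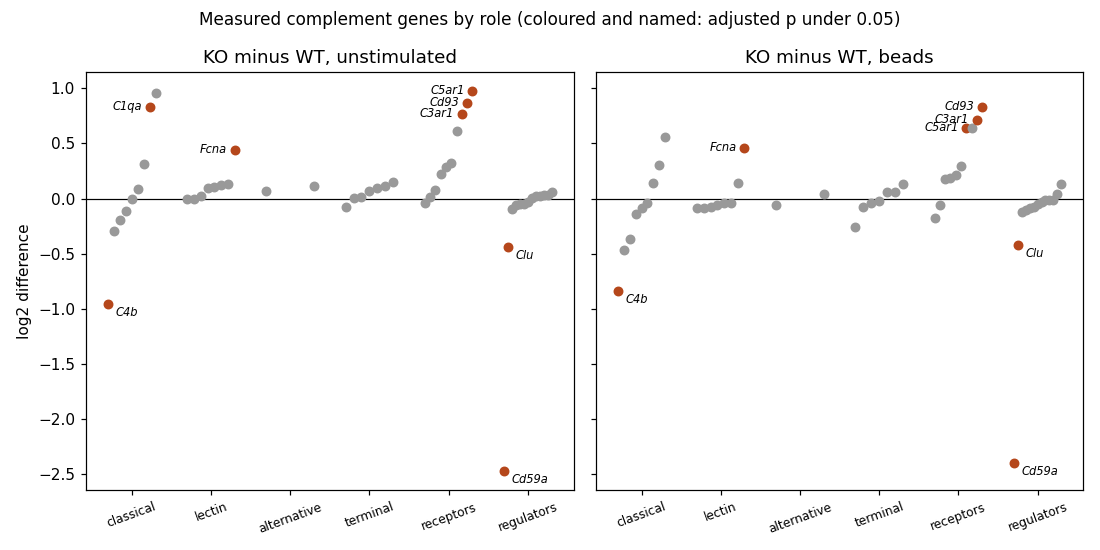
Log2 differences between the knockout and the wild-type line for the 49 measured complement genes, 7 described above and 42 others, by role, without beads (left) and with beads (right); each point is a gene, coloured and named where the adjusted p was under 0.05. Receptors lie mostly above 0 (medians 0.31 and 0.25), and Cd59a is lowest, at -2.47 and -2.40.

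The arrays read as macrophages in both lines. All 12 macrophage markers lay above the array median in 8 of the 10 arrays and 11 of them in the knockout bead arrays. The summed level of the 12 ran from 14.43 to 14.50 (log2) in unstimulated wild type, 14.20 to 14.64 with beads, 14.74 to 14.89 in unstimulated knockout and 14.66 to 14.83 with beads. In each comparison of the lines 5 of the 12 were higher in knockout and 1 lower, against 3.79% of all genes higher and 4.46% lower without beads, and 3.82% and 3.40% with them. Csf1r, the receptor for the growth factor of macrophages, was higher by 0.71 ± 0.12 without beads and Adgre1, which encodes F4/80, by 0.89 ± 0.16. Mertk, an uptake receptor, was at -1.50 ± 0.21. The markers did not move alike. Unstimulated group means in wild type and knockout were 7.98 and 10.45 for Cd14 and 8.65 and 9.79 for Fcgr1. They were 12.57 and 12.54 for Cd68 and 12.57 and 12.59 for Lyz2. Of the markers that differed, 5 moved in the direction of C3ar1, C5ar1 and C1qa, and Mertk moved the opposite way. The part of these markers in the differences of C3ar1, C5ar1 and C1qa was not tested. In bulk RNA, fewer cells of a type and less RNA per cell cannot be told apart. None of 30 markers of dendritic cells, granulocytes, lymphocytes, stroma and hepatocytes passed in any comparison. Of these, Col1a1, Col1a2 and Col3a1, collagen genes of fibroblasts, lay above the array median in every array. The summed stromal level ran from 8.54 to 8.87 in unstimulated wild type, 8.53 to 9.22 with beads, 8.71 to 8.97 in unstimulated knockout and 8.68 to 9.01 with beads. The 4 measured hepatocyte genes summed to 6.88 to 7.43 over all arrays.

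The genes most like each complement gene in profile were to be named where its group means spanned at least 1, and none did, C5ar1 coming nearest at 0.98. The genes nearest to C3ar1, C5ar1 and C1qa are therefore given as a choice made after the values were seen. Likeness was the root mean square difference of the log2 profiles over the 10 arrays, each gene's own mean removed. For the nearest genes, symbols of predicted genes, clones and small RNAs were left out by name pattern. That pattern also left out every symbol starting with Rn. The ranks below count all genes. Csf1r was nearest to C3ar1 (0.07), followed by Esyt1 (0.07) and Map4k1 (0.08). Tnf was nearest to C5ar1 (0.09), followed by Ifnar1 (0.10) and Rit1 (0.11). Dok2 was nearest to C1qa (0.12), followed by Ilk (0.13) and Iigp1 (0.13). C3ar1 was rank 12 of all genes from C5ar1, at 0.14, while C5ar1 was rank 127 from C3ar1 at that same distance. C1qb was rank 17016 from C1qa, at 0.47. The arrays share the separation of the lines, which shapes these profiles.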

How the data were processed

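The authors deposited log2 signals per probe set, made with RMA per the submitters' processing notes. Version, annotation, genome build, filters: not given in the sources used here. Array medians differed, so whether the 10 arrays were normalised together is unknown. Of 28853 probe sets, 21789 carried 1 gene symbol, 1621 several and 5443 none. Symbols were updated by Entrez ID for 21698. Each of 19938 genes was read from its single-symbol probe set with the highest mean, without a filter on signal.

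Arrays were grouped by the labels alone. A model with 4 group means was fitted in limma 3.58.1 (R 4.3.3, lmFit and eBayes, 6 residual and 3.23 prior degrees of freedom), two-sided. The script was tested on simulated data. The genes described, the other complement genes, the markers and the motifs were chosen with earlier results of these data known. By rule the genes named were the members, other complement genes that passed, and nearest profiles of members whose group means spanned at least 1. Others, among them Itgam, C4a, C1ra and Vsig4, were named after their values were seen. Alternatives were a trended, robust eBayes, median centring, quantile normalisation, a low-signal filter (25th percentile), the compared groups alone, array weights, the mean of probe sets, and each array left out. The number of arrays limits the precision.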

Additional observations from a re-analysis of the deposited data

Results flagged for a closer look

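Vsig4, a macrophage receptor for cleaved C3, had log2 signals with beads that lay on opposite sides of the unstimulated ones in the lines. Its 3 wild-type bead arrays (4.25 to 4.29) lay above its 3 unstimulated arrays (4.11 to 4.23), and its 2 knockout bead arrays (4.09 and 4.10) below the unstimulated ones (4.16 and 4.21). The difference of the bead responses was -0.19 ± 0.12 (SE) and did not pass in limma (adjusted p = 1.00). Over all genes, 2.29% had array ranges that lay higher with beads in wild type, and 11.2% lower in knockout. Ranked within arrays, the wild-type groups of Vsig4 overlapped (8.06 to 12.7 with beads, 7.31 to 9.82 without). Its signal lay between the 6.6 and the 12.7 percentile of the genes of its array.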

How the results depend on the processing

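No paired analysis was possible because arrays carry no replicate number shared between groups in the labels. Without beads, 3 of the 7 complement genes passed between the lines, 0 after median centring and 3 without any 1 array. With beads 2 passed, 0 after median centring, 0 when only the bead groups were fitted, 5 with array weights, and 0 to 3 without 1 array. In the wild-type bead response none passed, but 5 did with array weights, where C1qb turned from -0.02 to 0.20 (adjusted p = 0.0360). The weights ran from 0.0701 to 12.1 and their iteration stopped short of its tolerance. Where these counts moved, the cause was not tested. In knockout, and for the difference of the responses, 0 of the 7 passed under any setting. The other settings left the counts of the 7 within 1.5 times. All differences of C1qa, C3ar1 and C5ar1 between the lines stayed positive (C1qa 0.71 to 0.96, C3ar1 0.71 to 0.81 and C5ar1 0.92 to 1.05 without beads; C1qa 0.17 to 0.44, C3ar1 0.62 to 0.80 and C5ar1 0.50 to 0.75 with beads).

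The within-array differences of the C1q genes, chosen after the data were seen, were 0.85 to 0.96 (C1qa minus C1qb), 0.41 to 0.56 (C1qa minus C1qc) and 0.30 to 0.53 (C1qc minus C1qb) without 1 array, and 0.90, 0.46 and 0.44 after quantile normalisation.

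Over all genes, 1645 passed without beads, 772 after median centring, 2483 after quantile normalisation, 3262 with only those groups fitted, 4451 under array weights, and 681 to 3668 without 1 array. With beads it was 1439, against 734, 2263, 480, 6083 and 597 to 4171. The bead responses passed 9174 genes in wild type and 16 in knockout with array weights, and their difference 9. Without wild-type bead array 3, 17 passed in knockout and 1 for the difference. Of the 42 other complement genes 5 passed between the lines without beads, 3 after median centring, 8 after quantile normalisation, 9 with array weights and 2 to 7 without 1 array. With beads it was 5, against 3 after median centring, 1 with only those groups fitted, 11 under array weights and 1 to 6 without 1 array. In the wild-type bead response it was 0, and 16 with array weights. A group left with 1 array was assumed to vary like the others.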
